A study of Mus musculus with 16 samples.

Results

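The gene *Trp53*, its negative regulators *Mdm2* and *Mdm4*, and 7 direct targets of the p53 protein (*Cdkn1a*, *Ccng1*, *Bbc3*, *Bax*, *Gadd45a*, *Sesn2* and *Trp53inp1*) were followed in mouse myoblasts cultured with or without their muscle fiber. The 10 genes were taken by name from the gene-name column of the microarray scans, with earlier results of these data known. They stood among 34836 gene names, and all 10 were among the 20317 genes tested. They are read by 14 probes, and every probe was well above background on all 16 arrays and saturated on none.

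Total RNA came from male C57Bl/6J mice of 11 to 13 weeks with no further treatment or allele. Dispersed myoblasts were grown away from the fiber and harvested at 48 hr (4 arrays) or 72 hr (4 arrays), with 1 mouse per replicate. Myofiber-associated myoblasts were kept on isolated single fibers for 48 hr (4 arrays) or 72 hr (4 arrays), then stripped from the fibers with trypsin and separated from them by centrifugation, with 2 mice per replicate, and 1 of the 48-hr replicates (named 10+11) joined a pair of preparations. Each RNA was hybridized alone, with 1 dye, to an Agilent whole-genome array. Levels are given as log2 of the background-subtracted, normalized signal, so that a difference of 1 is a 2-fold difference. A gene was called changed where limma's moderated test gave a Benjamini-Hochberg adjusted p under 0.01 over all 20317 genes.

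The protein p53 is a transcription factor that cells keep scarce by continuous degradation. MDM2, itself the product of a p53 target gene, marks p53 for destruction, and MDM4 binds and restrains it. When p53 is stabilized it turns on genes that stop the cell cycle, repair DNA, adjust metabolism or start apoptosis. Much of this control acts on the protein, which arrays of mRNA do not measure. In muscle precursors p53 has been studied in the choice between differentiation and return to quiescence.

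The arrays of each culture shared 1 slide and 1 scan session, so that culture and slide cannot be told apart in any comparison between cultures. On both slides the 72-hr arrays lay in columns 1 and 2 and the 48-hr arrays in columns 3 and 4. Between 54.0% and 63.5% of probes were well above background on each array. All 6 myoblast markers (*Pax7*, *Myf5*, *Myod1*, *Des*, *Cdh15*, *Itga7*) were above background on every array. Of the 4 group means, those of *Pax7*, *Myf5* and *Cdh15* were lowest on the fiber at 48 hr (10.21, 6.35 and 12.41). At 72 hr they were 11.89, 6.94 and 13.73 there. *Des* and *Itga7* had their highest means on the fiber at 48 hr (15.99 and 16.03), and *Myod1* had its lowest in dispersed arrays at 48 hr (14.41). The labels state that no fiber RNA was found in the preparations, but 7 adult fiber markers (*Ckm*, *Myh1*, *Myh2*, *Myh4*, *Actn3*, *Pvalb*, *Atp2a1*) were above background on all 16 arrays. In the myofiber-associated arrays their summed signal lay between 826233 and 1243350 at 48 hr and between 164580 and 743662 at 72 hr, against between 10094.6 and 24921.7 and between 5292.05 and 7003.23 in the dispersed arrays. The creatine kinase gene *Ckm* had a log2 level of 17.36 ± 0.42 (SD, n = 4) in myofiber-associated arrays at 48 hr and 9.74 ± 0.67 (SD, n = 4) in dispersed arrays at 48 hr. Myofiber-associated replicates 2 and 4 at 72 hr carried more of this signal (574396 and 743662) than replicates 1 and 3 (220677 and 164580). Without replicates 2 and 4, limma was therefore also run on the time change on the fiber and on its difference from the dispersed change. The comparison of the cultures at 72 hr was rerun too. This alternative was chosen after the data were seen.

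*Trp53* itself was read by 1 probe, printed on 2 spots of each array, which lies in mm9 at chr11:69404204-69404263 on the plus strand, from base 1187 of its transcript. Its sequence is shown whole because every statement on *Trp53* rests on these 60 bases.
Trp53 probe: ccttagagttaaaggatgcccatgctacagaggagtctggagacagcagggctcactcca

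*Trp53* mRNA was level in dispersed myoblasts and lower in myofiber-associated myoblasts at 48 hr than in any other group. In dispersed myoblasts its log2 level was 10.57, 10.60, 10.50 and 10.47 at 48 hr and 10.55, 10.59, 10.49 and 10.29 at 72 hr. In myofiber-associated myoblasts it was 9.66, 10.03, 9.84 and 9.79 at 48 hr and 10.59, 10.37, 10.55 and 10.24 at 72 hr. The myofiber-associated time points did not overlap, and the 72-hr arrays fell within or just beside the range of the dispersed arrays. Ranked by mean, dispersed 48 hr, dispersed 72 hr and myofiber-associated 72 hr each overlapped the next, while myofiber-associated 48 hr stood apart by 0.21.

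From 48 to 72 hr the log2 difference of *Trp53* was 0.61 (SE 0.12, 95% interval 0.34 to 0.88, 1.53-fold) in myofiber-associated myoblasts, with an adjusted p of 0.0117 by limma, which misses the threshold of 0.01. The exact permutation test of 4 against 4 arrays (two-sided) gave p = 0.0286, the smallest that 70 splits allow. In dispersed myoblasts the difference was -0.06 (SE 0.07, 95% interval -0.22 to 0.11, adjusted p = 0.602 by limma, exact permutation p = 0.571). The difference between these time changes, here called the comparative ratio (dispersed minus myofiber-associated), was -0.67 (SE 0.14, 1.59-fold, adjusted p = 0.0079 by limma) and passed. This call was near the threshold: it was lost when any of 13 of the 16 arrays was left out, with adjusted p-values up to 0.0194, and with the slide column as a random block (adjusted p = 0.0368). At 48 hr the level was 0.71 (SE 0.09) lower in myofiber-associated than in dispersed myoblasts (1.63-fold, adjusted p = 3.09e-04 by limma), and at 72 hr the difference was -0.04 (95% interval -0.28 to 0.20, adjusted p = 0.777). The 48-hr call was lost with the slide row as a block (adjusted p = 0.0128 by limma). In that fit the difference between cultures was estimated from the first row of each slide alone (-0.74). Fewer *Trp53*-expressing cells in a preparation, less *Trp53* mRNA per cell and a share of fiber RNA cannot be told apart in such bulk RNA. Culture and slide cannot be told apart here either.

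**Figure D1:**
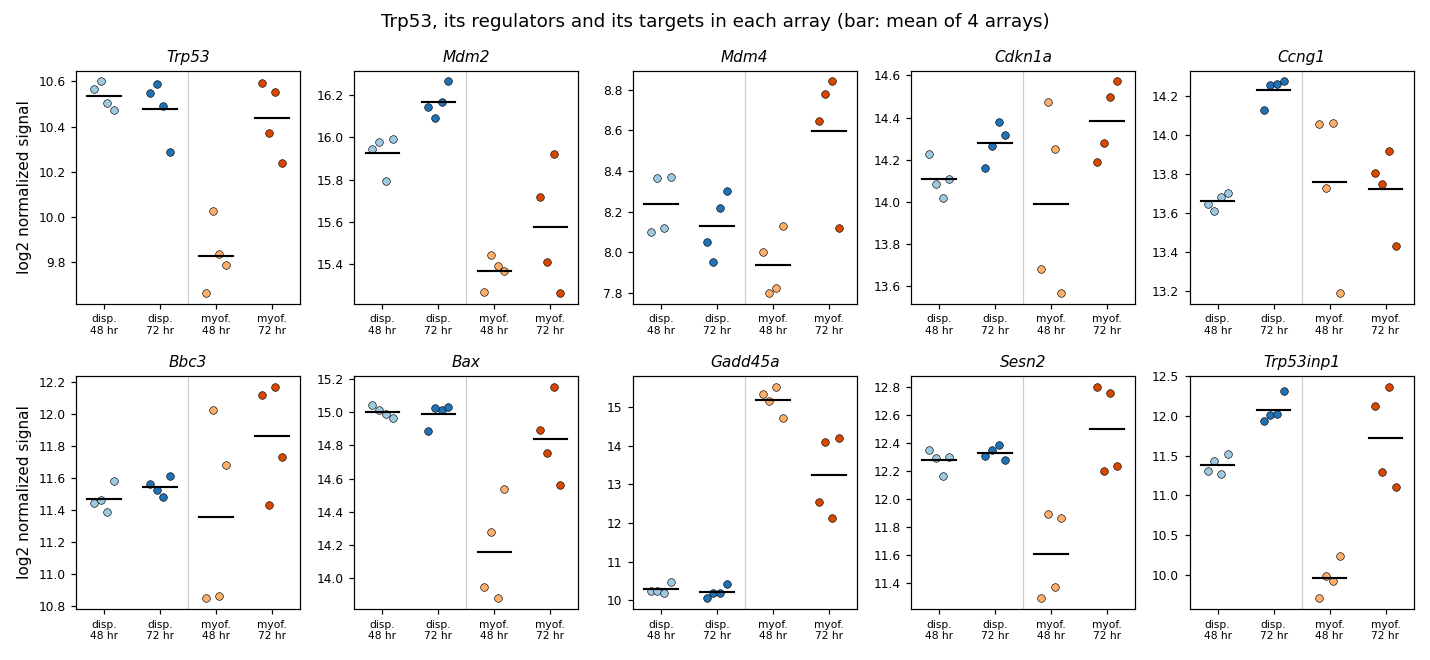
Log2 normalized signal of the 10 genes (vertical axes, each with its own range) in the 4 groups of dispersed (disp.) and myofiber-associated (myof.) myoblasts at 48 and 72 hr. Points are arrays and bars are means of 4 arrays. All 4 arrays on the fiber at 48 hr lie below every other array for *Trp53*, *Bax*, *Sesn2* and *Trp53inp1*, and above every other array for *Gadd45a*.

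Of all 10 genes, 2 rose from 48 to 72 hr in dispersed myoblasts (*Ccng1* and *Trp53inp1*) and none fell, where 7.38% of all genes tested rose and 6.32% fell. In myofiber-associated myoblasts 1 rose (*Trp53inp1*) and none fell, where 3.74% of all genes rose and 1.74% fell. At an adjusted p under 0.05, 3 of the 10 passed in dispersed myoblasts, where 26.9% of all genes did, and 6 of the 10 on the fiber, where 22.6% of all genes did. At an unadjusted p under 0.05, 4 were above and 0 below 0 in dispersed myoblasts, where 21.8% of all genes were above and 16.8% below. On the fiber 5 were above and 1 was below, where 23.8% of all genes were above and 17.7% below. The comparative ratio was below 0 for 1 gene (*Trp53*) and above 0 for none, where 2.36% of all genes were below and 1.09% above. The time points did not overlap for 3 of the 10 genes in dispersed (31.2% of all genes) and for 5 in myofiber-associated myoblasts (26.3% of all genes). The median log2 change of the 10 genes was 0.06 in dispersed and 0.56 in myofiber-associated myoblasts, against 0.02 and 0.06 over all genes tested.

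At 48 hr, 5 of the 10 genes were lower in myofiber-associated than in dispersed myoblasts (*Trp53*, *Mdm2*, *Bax*, *Sesn2* and *Trp53inp1*), where 27.0% of all genes were lower, and 1 was higher (*Gadd45a*), where 16.1% of all genes were higher. At 72 hr 1 was lower (*Ccng1*), where 15.6% of all genes were lower, and 1 was higher (*Gadd45a*), where 11.5% of all genes were higher. With the slide row as a block the 48-hr calls of *Trp53*, *Mdm2*, *Bax* and *Sesn2* were lost (adjusted p = 0.0128, 0.0151, 0.0267 and 0.059 by limma). The 72-hr calls of *Ccng1* and *Gadd45a* were lost with that block too (adjusted p = 0.136 and 0.0339 by limma). That block estimates a difference between cultures from the first row of each slide alone, so that it rests on fewer arrays. Replicates of the 10 genes were tighter in dispersed than in myofiber-associated myoblasts, with a median SD of 0.08 at both times in the former and 0.31 at both times in the latter, against 0.09 to 0.10 and 0.18 to 0.22 over all genes.

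**Figure D2:**
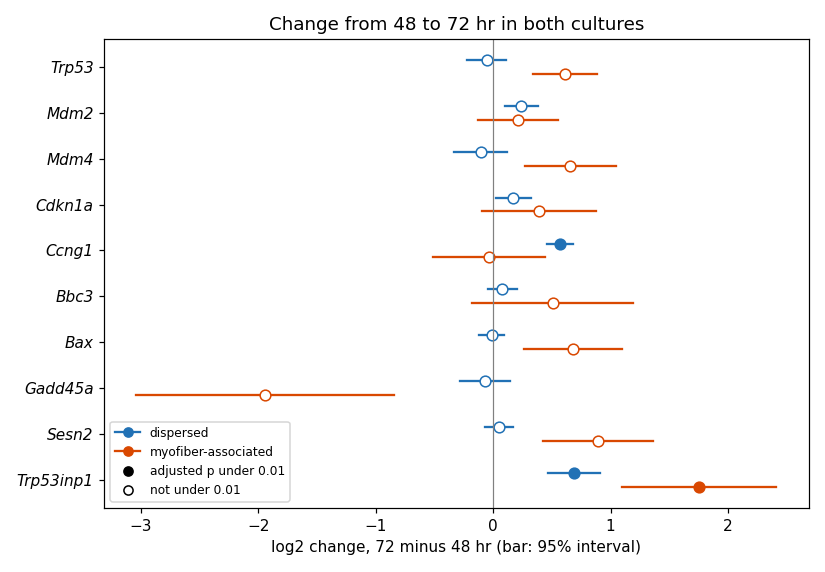
Log2 change from 48 to 72 hr (horizontal axis) of the 10 genes in dispersed (blue) and myofiber-associated (orange) myoblasts, with 95% intervals of limma's fit to 4 against 4 arrays. Filled points passed an adjusted p of 0.01: *Ccng1* (0.57) and *Trp53inp1* (0.69) in dispersed and *Trp53inp1* (1.76) in myofiber-associated myoblasts.

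Neither regulator of p53 passed the test over time in either culture. *Mdm2*, which encodes the ubiquitin ligase of p53, had log2 levels of 15.95, 15.98, 15.79 and 15.99 at 48 hr and 16.15, 16.09, 16.17 and 16.27 at 72 hr in dispersed myoblasts. On the fiber its levels were 15.27, 15.44, 15.39 and 15.37 at 48 hr and 15.72, 15.41, 15.92 and 15.26 at 72 hr. All 8 dispersed arrays lay above the 48-hr myofiber-associated arrays, and the 72-hr arrays on the fiber were spread from the lowest level of all into the dispersed range, where replicate 3 (15.92) lay above 1 of the dispersed 48-hr arrays. The change in dispersed myoblasts was 0.24 (SE 0.06, adjusted p = 0.0216 by limma) and that on the fiber was 0.21 (SE 0.15, adjusted p = 0.306), and their difference was 0.03 (95% interval -0.32 to 0.38, adjusted p = 0.912). Between cultures *Mdm2* was lower on the fiber at 48 hr by 0.56 (SE 0.08, adjusted p = 4.47e-04), and the difference of -0.59 at 72 hr just missed the threshold (adjusted p = 0.0108).

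*Mdm4*, whose product restrains p53 at its activation domain, was read by 2 probes that did not run together. The brighter one, near the transcript's end at base 3426 (chr1:134886426-134886485, minus strand, mm9), lay between 7.80 and 8.13 at 48 hr and between 8.12 and 8.84 at 72 hr on the fiber, a log2 change of 0.66 (SE 0.17, adjusted p = 0.0299 by limma). The other, from base 1445 (chr1:134888407-134888466), lay between 7.04 and 7.32 at 48 hr and between 6.97 and 7.17 at 72 hr there. Its change was -0.13 on the fiber (adjusted p = 0.357) and 0.50 in dispersed myoblasts (adjusted p = 0.0788), and its comparative ratio was 0.62 where that of the brighter probe was -0.76. No *Mdm4* probe passed in either culture, and the direction of the comparative ratio depended on the probe. The first 30 bases of both probes are given so that the 2 readings can be told apart.
Mdm4 probe from base 3426: gacccattaagctctgtttacagccttgaa
Mdm4 probe from base 1445: acagatattttttctgagcagaaagctgaa

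Among the targets that act on the cell cycle, *Cdkn1a*, which encodes the cyclin-dependent kinase inhibitor p21, was read by 3 probes. The first 30 bases of the main probe and of the probe for transcript variant 2 are shown because they gave different results. The main probe lies near the end of the gene (10 spots, chr17:29237377-29237436, plus strand, mm9, base 1619 of its transcript). The variant 2 probe starts at base 55 of its transcript (chr17:29227986-29228045), 9391 bases upstream of the main probe.
Cdkn1a main probe: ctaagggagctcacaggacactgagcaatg
Cdkn1a variant 2 probe: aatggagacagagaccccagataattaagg

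The main *Cdkn1a* probe had log2 levels of 14.23, 14.09, 14.02 and 14.11 at 48 hr and 14.16, 14.27, 14.38 and 14.32 at 72 hr in dispersed myoblasts. On the fiber its levels were 13.68, 14.47, 14.25 and 13.57 at 48 hr and 14.19, 14.28, 14.50 and 14.57 at 72 hr. The time points overlapped in both cultures, with changes of 0.17 (95% interval 0.02 to 0.32, adjusted p = 0.0855 by limma) and 0.39 (95% interval -0.09 to 0.88, adjusted p = 0.194). The 2 low arrays on the fiber at 48 hr (replicates 7 and 10+11) set most of that group's width.

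The variant 2 probe, by contrast, separated the time points in both cultures. Its log2 levels were 9.92, 9.87, 9.77 and 9.88 at 48 hr and 10.06, 10.17, 10.17 and 10.20 at 72 hr in dispersed myoblasts. On the fiber they were 7.69, 8.05, 7.72 and 7.46 at 48 hr and 9.75, 9.24, 10.28 and 8.87 at 72 hr. All 4 myofiber-associated arrays at 48 hr lay more than 1 log2 unit below every dispersed array, and at 72 hr replicates 1 and 3 reached the dispersed range or came near it. The probe rose by 0.29 (SE 0.05, 1.22-fold, adjusted p = 0.00524 by limma over 28197 probes) in dispersed and by 1.81 (SE 0.29, 3.50-fold, adjusted p = 0.00607) in myofiber-associated myoblasts. The comparative ratio was -1.52 (SE 0.31, adjusted p = 0.00849) and passed. Leaving out 1 array ended the call of the ratio for 11 of the 16 arrays (highest adjusted p = 0.0217) and that of the rise on the fiber for 5 of the 8 (highest adjusted p = 0.0239), and with the slide column as a random block both were lost (adjusted p = 0.0284 and 0.0229). In dispersed myoblasts the call was lost when any of 6 of the 8 arrays was left out (highest adjusted p = 0.0188). Without replicates 2 and 4 at 72 hr the rise on the fiber was 2.29. The remaining probe, for an Ensembl-named transcript of *Cdkn1a* (chr17:29235299-29235358), had group means of 7.64 and 7.80 in dispersed and 6.40 and 7.42 in myofiber-associated myoblasts, and did not pass in either culture (adjusted p = 0.65 and 0.129). Among the 14 probes, 4 passed in dispersed (12.4% of all 28197 probes), 2 on the fiber (5.43%) and 2 in the comparative ratio (3.12%), the latter those of *Trp53* and of *Cdkn1a* variant 2.

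**Figure D3:**
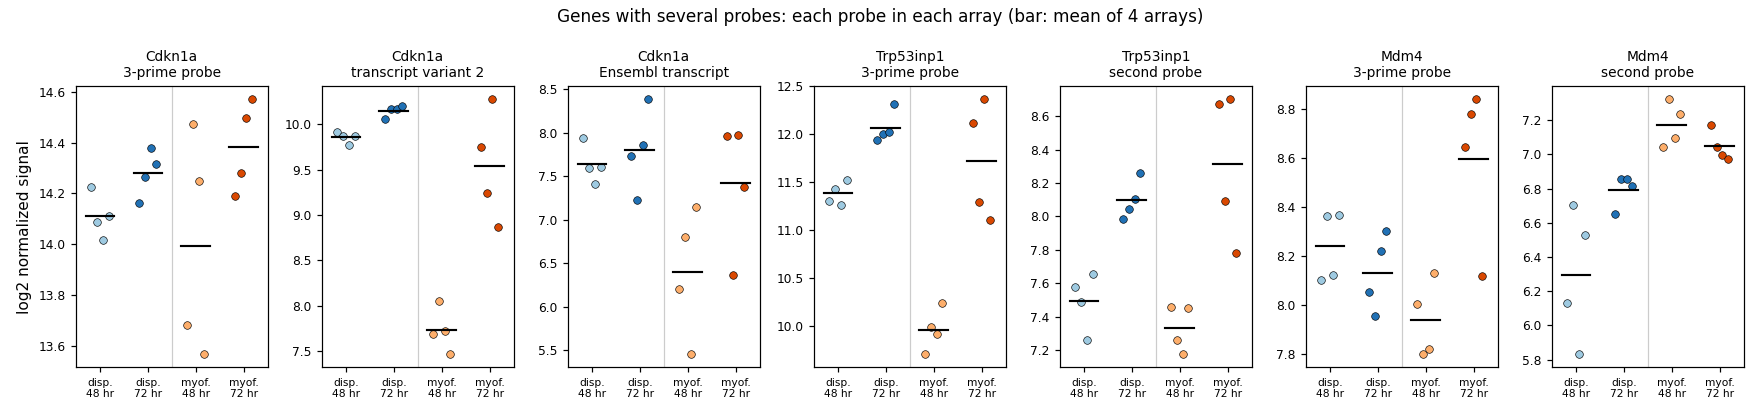
Log2 normalized signal (vertical axes, each with its own range) of every probe of the 3 genes with several probes, by array, with bars at the means of 4 arrays. The *Cdkn1a* variant 2 probe lies between 7.46 and 8.05 in all myofiber-associated arrays at 48 hr, while the main probe of *Cdkn1a* overlaps between all groups. The *Mdm4* probes do not run together on the fiber, where the change of neither passed.

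*Cdkn1a* is a classical p53 target with more than 1 transcription start, and its start regions are shown for the sequence that p53 is known to read. The RefSeq table does not say which transcript begins at which start, and the probes are placed on another build, so that neither probe was tied to a start. A p53 response element joins a pair of copies of a degenerate p53 decamer motif, the known p53 consensus, which is its own reverse complement, so that 1 search covers both strands. The 250 bases before each start in RefSeq's GRCm38.p6 annotation were searched for exact matches, and for pairs with a spacer of at most 13 bases. The decamer occurred in 7.13% of 32851 such windows and a pair in 0.0639% (21 windows). The upstream *Cdkn1a* start had a pair with a spacer of 12 bases, beginning 73 and 51 bases before the start, and the downstream start had none. Capitals mark the decamers that matched exactly. Decamers with a mismatch were not searched for, so that the marked pair need not be the element that p53 reads.
Cdkn1a upstream start, chr17:29090729-29090978, plus strand: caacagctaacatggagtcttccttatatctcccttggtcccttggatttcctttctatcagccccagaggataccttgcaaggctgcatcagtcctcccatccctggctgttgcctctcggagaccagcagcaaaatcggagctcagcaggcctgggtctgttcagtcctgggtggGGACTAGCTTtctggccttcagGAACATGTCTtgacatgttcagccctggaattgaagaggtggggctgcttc
Cdkn1a downstream start, chr17:29093519-29093768, plus strand: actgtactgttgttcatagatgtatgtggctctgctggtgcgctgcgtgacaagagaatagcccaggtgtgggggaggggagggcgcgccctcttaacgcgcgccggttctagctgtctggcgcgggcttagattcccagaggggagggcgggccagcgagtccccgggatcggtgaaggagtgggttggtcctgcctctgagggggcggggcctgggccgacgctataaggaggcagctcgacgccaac

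Of the 10 genes, 9 had at least 1 start in that table (13 windows), and *Trp53inp1* was not matched. Single decamers lay before the starts of *Trp53*, *Mdm2*, *Ccng1*, *Bax* and *Gadd45a*, and none lay before those of *Mdm4*, *Bbc3* and *Sesn2*. These are matches of letters in a short window and not measured binding sites.

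*Ccng1* encodes cyclin G1, which recruits a phosphatase to MDM2. It passed the test over time in dispersed and not in myofiber-associated myoblasts, the only gene of the 10 to do so, and its window is given for that reason. In dispersed myoblasts its log2 level was 13.65, 13.61, 13.68 and 13.70 at 48 hr and 14.13, 14.26, 14.26 and 14.27 at 72 hr. On the fiber it was 14.06, 13.73, 14.06 and 13.19 at 48 hr and 13.81, 13.75, 13.92 and 13.43 at 72 hr. The dispersed 72-hr arrays all lay above every other array, and the time points on the fiber overlapped. The rise in dispersed myoblasts was 0.57 (SE 0.05, 1.48-fold, adjusted p = 1.55e-04 by limma), and the change on the fiber was -0.03 (95% interval -0.51 to 0.44, adjusted p = 0.912). The comparative ratio of 0.60 (95% interval 0.13 to 1.08) did not pass (adjusted p = 0.0764), so that the 2 time changes were not shown to differ. At 72 hr *Ccng1* was 0.50 (SE 0.11) lower on the fiber (1.42-fold, adjusted p = 0.00658), a call lost with the slide column as a random block (adjusted p = 0.0184) and when any of 6 arrays was left out.
Ccng1 start, GRCm38.p6 chr11:40755287-40755536, minus strand: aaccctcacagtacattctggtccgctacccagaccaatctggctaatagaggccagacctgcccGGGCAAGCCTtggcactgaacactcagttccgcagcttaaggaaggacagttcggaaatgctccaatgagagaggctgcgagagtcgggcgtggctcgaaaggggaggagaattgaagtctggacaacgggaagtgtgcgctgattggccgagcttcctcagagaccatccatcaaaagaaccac

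*Gadd45a*, a DNA damage and stress gene whose product slows the cell cycle and which is also induced in wasting muscle, was the only one of the 10 genes that was higher on the fiber by the test, at both times. In dispersed myoblasts its log2 level was 10.23, 10.23, 10.20 and 10.46 at 48 hr and 10.04, 10.18, 10.20 and 10.43 at 72 hr. On the fiber it was 15.33, 15.16, 15.53 and 14.72 at 48 hr and 12.54, 14.10, 12.12 and 14.21 at 72 hr. No array on the fiber overlapped a dispersed array, and at 72 hr replicates 1 and 3 were well below replicates 2 and 4. The level on the fiber exceeded that in dispersed myoblasts by 4.91 (SE 0.16, 30.0-fold, adjusted p = 8.08e-07 by limma) at 48 hr and by 3.03 (SE 0.47, 8.19-fold, adjusted p = 0.00149) at 72 hr. The change on the fiber was -1.94 (SE 0.48, 3.84-fold, adjusted p = 0.0258) and did not pass, but without replicates 2 and 4 it was -2.85 (adjusted p = 0.00159). In dispersed myoblasts the difference was -0.07 (95% interval -0.28 to 0.14, adjusted p = 0.624). The window before its start is shown beside those above, for the gene with the widest gap between the cultures.
Gadd45a start, GRCm38.p6 chr6:67037408-67037657, minus strand: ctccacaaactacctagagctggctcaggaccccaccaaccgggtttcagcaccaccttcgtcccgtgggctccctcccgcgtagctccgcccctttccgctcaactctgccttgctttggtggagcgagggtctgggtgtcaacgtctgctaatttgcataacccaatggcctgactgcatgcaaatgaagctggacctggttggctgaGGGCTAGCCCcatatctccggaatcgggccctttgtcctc

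The targets that act in apoptosis were *Bbc3*, *Bax* and *Trp53inp1*. *Bax*, which encodes a protein that opens the mitochondrial outer membrane, lay between 14.89 and 15.04 in all dispersed arrays. On the fiber it lay between 13.88 and 14.54 at 48 hr and between 14.56 and 15.15 at 72 hr, without overlap, though by a gap of only 0.02. It was lower on the fiber at 48 hr by 0.84 (SE 0.14, 1.79-fold, adjusted p = 0.00132 by limma), while the change on the fiber of 0.68 (SE 0.18, adjusted p = 0.0327) and the comparative ratio of -0.69 (adjusted p = 0.0303) did not pass. *Bbc3*, which encodes the BH3-only protein PUMA, passed in no comparison. Its 8 dispersed arrays lay between 11.39 and 11.61, and its arrays on the fiber spread from 10.85 to 12.02 at 48 hr and from 11.43 to 12.17 at 72 hr.

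*Trp53inp1* encodes a p53-induced nuclear protein that promotes apoptosis and autophagy. Read by the brightest probe of each gene, it was the only one of the 10 genes whose rise passed in both cultures. The *Cdkn1a* variant 2 probe, not the brightest of its gene, also passed as a rise in both. In dispersed myoblasts the log2 level of *Trp53inp1* was 11.31, 11.43, 11.27 and 11.52 at 48 hr and 11.94, 12.01, 12.02 and 12.32 at 72 hr. On the fiber it was 9.71, 9.99, 9.92 and 10.24 at 48 hr and 12.12, 11.29, 12.37 and 11.10 at 72 hr. All 4 arrays on the fiber at 48 hr lay at least 1.03 below every dispersed array, and at 72 hr replicates 1 and 3 were at or just above the dispersed 72-hr levels and replicates 2 and 4 below them. The rise was 0.69 (SE 0.10, 1.61-fold, adjusted p = 0.00159 by limma) in dispersed and 1.76 (SE 0.29, 3.38-fold, adjusted p = 0.00654) in myofiber-associated myoblasts. Their difference of -1.07 (95% interval -1.76 to -0.38, adjusted p = 0.039) did not pass. At 48 hr the brightest probe was lower on the fiber by 1.42 (SE 0.12, 2.67-fold, adjusted p = 4.24e-05). The rise on the fiber lost its call when any of 6 of its 8 arrays was left out (1.54 to 1.90, highest adjusted p = 0.0256) and with the slide column as a random block (adjusted p = 0.0179), and was 2.28 without replicates 2 and 4. Its second probe (base 659, chr4:11092530-11092589, mm9) gave 0.60 (adjusted p = 0.00341) in dispersed and 0.98 (adjusted p = 0.0176) in myofiber-associated myoblasts.

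*Sesn2*, which encodes a stress sensor that restrains mTORC1, was the metabolic target of the 10. Its dispersed arrays lay between 12.16 and 12.38 at both times. On the fiber its log2 level was 11.29, 11.89, 11.37 and 11.86 at 48 hr and 12.80, 12.20, 12.75 and 12.24 at 72 hr. The time points on the fiber did not overlap, and replicates 1 and 3 at 72 hr lay above every dispersed array. The change there of 0.89 (SE 0.20, 1.86-fold, adjusted p = 0.0205 by limma) and the comparative ratio of -0.84 (adjusted p = 0.0242) missed the threshold, and the deficit on the fiber at 48 hr of 0.67 (SE 0.15, 1.59-fold, adjusted p = 0.00519) passed. That call was lost when any of 6 of the 8 arrays was left out.

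Across the 16 arrays the level of *Trp53* ran most closely with *R3hcc1* (Pearson r = 0.98), *Cep290* (0.97), *Calr* (0.97), *Strn4* (0.96) and *Eno1* (0.96) among 12265 genes above background on every array. Within the 10 genes r with *Trp53* was 0.90 for *Bax*, 0.88 for *Sesn2*, 0.87 for *Trp53inp1*, 0.73 for *Mdm2*, 0.48 for *Mdm4*, 0.45 for *Cdkn1a*, 0.44 for *Bbc3*, 0.16 for *Ccng1* and -0.83 for *Gadd45a*. These correlations are descriptions over arrays that share 2 slides, 2 cultures and the fiber signal, and most of the range of *Trp53* comes from the 4 arrays on the fiber at 48 hr.

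Within the myofiber-associated arrays at 72 hr some of these transcripts were ordered by the fiber markers. From the lowest marker sum to the highest (replicates 3, 1, 2 and 4), *Gadd45a* was higher at each step and *Mdm2*, *Ccng1*, *Bax* and *Trp53inp1* were lower at each step, which makes 5 of the 10 genes, where 25.4% of all genes followed that order in either direction. The *Cdkn1a* variant 2 probe was also lower at each step. *Trp53*, *Mdm4*, the main *Cdkn1a* probe, *Bbc3* and *Sesn2* did not follow the order, and the main *Cdkn1a* probe was highest in replicate 4 (14.57). Replicate 3, with a marker sum of 164580, had a log2 level of 12.12 for *Gadd45a*, 12.37 for *Trp53inp1* and 10.28 for *Cdkn1a* variant 2. Replicate 4, with a marker sum of 743662, had 14.21, 11.10 and 8.87. For *Trp53* the values of replicates 3, 1, 2 and 4, in the order of rising fiber signal, were 10.55, 10.59, 10.37 and 10.24. The part of the fiber signal in these differences was not tested. Replicates 1 and 3 also lay in the other slide column from replicates 2 and 4, and 8 of the 10 genes (63.2% of all genes) were apart by column in that group. Without replicates 2 and 4 the *Trp53* change on the fiber was 0.75 (adjusted p = 0.0105 by limma) and its comparative ratio -0.80 (adjusted p = 0.00112), and 6 of the 10 genes passed in the comparative ratio in place of 1, where 17.4% of all genes passed under the same removal. Other markers moved as well: the summed signal of 6 fibroblast markers lay between 77596.3 and 187709 on the fiber at 48 hr and between 36899.4 and 64824.4 there at 72 hr, and that of 6 endothelial markers was 20578 to 24019.9 and then 9861.03 to 12115.4 in dispersed myoblasts. The differentiation gene *Myog* had log2 means of 6.05 and 9.96 in dispersed and 14.30 and 13.66 in myofiber-associated myoblasts at 48 and 72 hr. The other early differentiation markers, *Tmem8c*, *Myh3* and *Tnnt1*, had higher means at 72 than at 48 hr in both cultures. On the fiber their means went from 6.90 to 9.21, from 2.95 to 9.68 and from 10.64 to 13.5. *Myh3* was well above background on 0 arrays there at 48 hr. The part of these cell types in the results was not tested either.

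**Figure D4:**
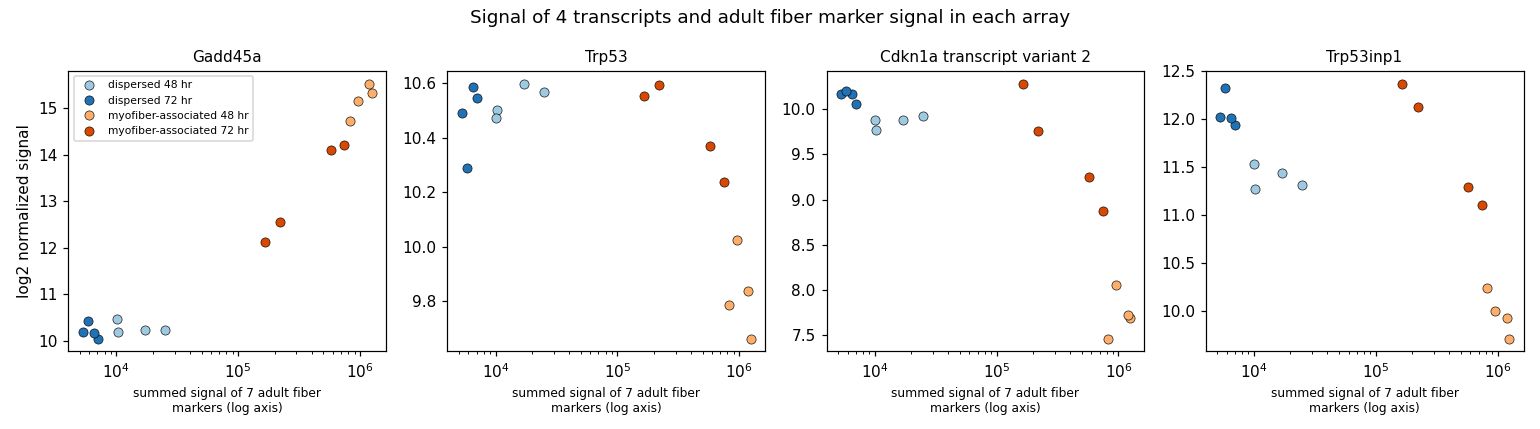
Log2 normalized signal of *Gadd45a*, *Trp53*, the *Cdkn1a* variant 2 probe and *Trp53inp1* (vertical axes, each with its own range) against the summed signal of 7 adult fiber markers (horizontal log axis) in the 16 arrays, coloured by group. Over the 8 myofiber-associated arrays *Gadd45a* spans 12.12 to 15.53 and is higher at higher marker sums, and the other 3 are lower there. All 48-hr arrays on the fiber have higher marker sums than the 72-hr arrays, so that time and fiber signal cannot be told apart over these 8 arrays.

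Other genes of the pathway were taken from lists of 42 further p53 targets and 30 regulators and partners of p53, of which 42 and 29 were tested. In dispersed myoblasts 14 of the 42 targets rose, where 7.38% of all genes rose, and 1 fell, where 6.32% of all genes fell, with a median log2 change of 0.21 against 0.02 over all genes. The risers included 7 of the 11 targets of the cell death group, among them *Perp* (0.91, adjusted p = 0.00751 by limma, a call lost when any of 6 of the 8 arrays was left out), a desmosomal protein linked to apoptosis, and *Pmaip1* (0.57, adjusted p = 8.58e-04), which encodes the BH3-only protein NOXA. *Ptprv*, a tyrosine phosphatase gene induced by p53, rose by 1.46 (adjusted p = 2.96e-04) but was well above background on only 1 of the 4 arrays at 48 hr in each culture. With normexp background correction its rise was 0.50 (adjusted p = 1.98e-04). The imprinted zinc finger gene *Peg3* rose by 1.08 (SE 0.10, adjusted p = 2.05e-04), and *Igfbp3*, which encodes a binding protein of insulin-like growth factors, fell by 0.67 (adjusted p = 4.04e-04).

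In myofiber-associated myoblasts 3 of the 42 targets rose, where 3.74% of all genes rose, and none fell, where 1.74% of all genes fell, with a median of 0.14 against 0.06 over all genes. *Peg3* rose by 3.31 (SE 0.29, 9.91-fold, adjusted p = 8.59e-04 by limma), from a mean of 8.96 ± 0.31 to 12.27 ± 0.60 (SD, n = 4). *Ptprv* rose by 3.65 (adjusted p = 0.00766), and by 1.38 with normexp background correction, where it no longer passed (adjusted p = 0.0171). *Bid*, which encodes a BH3-only protein cleaved by caspases, rose by 0.95 (SE 0.17, 1.93-fold, adjusted p = 0.00956), close to the threshold. The calls of *Ptprv* and *Bid* were lost with the slide column as a random block (adjusted p = 0.04 and 0.0302) and when any of 7 and 6 of the 8 arrays, respectively, was left out, and that of *Peg3* held in each of these fits. The comparative ratio was below 0 for *Peg3* (-2.23, adjusted p = 0.00141).

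Among the 29 regulators and partners, 4 rose and 1 fell in dispersed myoblasts, where 7.38% and 6.32% of all genes did, with a median log2 change of 0.03 against 0.02 over all genes. On the fiber 2 rose and 1 fell, where 3.74% and 1.74% of all genes did, with a median of 0.12 against 0.06. *Cdkn2a*, whose ARF product holds MDM2 away from p53, rose in both, by 1.11 (SE 0.15, 2.16-fold, adjusted p = 0.00166 by limma) in dispersed and by 2.79 (SE 0.25, 6.90-fold, adjusted p = 8.66e-04) in myofiber-associated myoblasts. The same gene also encodes p16, and which product its probe reads was not examined. Its mean went from 11.74 ± 0.14 to 12.85 ± 0.32 in dispersed myoblasts and from 10.70 ± 0.41 to 13.49 ± 0.38 (SD, n = 4) on the fiber, and its comparative ratio was -1.68 (adjusted p = 0.00471). Its rise held in both cultures when any array was left out, and on the fiber also with the slide column as a random block. The ratio's call was lost when any of 8 of the 16 arrays was left out and with that block (adjusted p = 0.0216 by limma). *Trp53bp1*, which encodes a mediator of the DNA damage response that binds p53, also rose in both, by 0.39 (adjusted p = 0.00565) and 0.93 (adjusted p = 0.00729). *Hipk2*, a kinase of p53, and *Rchy1*, which encodes the ubiquitin ligase PIRH2, rose in dispersed myoblasts by 0.30 and 0.26, and the family member *Trp63* fell by 0.23. With the mean of all its probes *Hipk2* changed by only 0.016 (adjusted p = 0.906), and the call of each of these 3 genes was lost when any of 7 of the 8 arrays was left out. *Twist1*, which encodes a basic helix-loop-helix factor that binds p53, fell by 1.37 (SE 0.21, 2.58-fold, adjusted p = 0.00564) on the fiber. On the fiber the calls of *Trp53bp1* and *Twist1* were lost with the slide column as a random block (adjusted p = 0.0236 and 0.0276) and when any of 7 and 6 of the 8 arrays, respectively, was left out, and in dispersed myoblasts that of *Trp53bp1* was lost for 6 of the 8.

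Between cultures, 18 of the 42 targets were lower and 5 higher on the fiber at 48 hr, where 27.0% of all genes were lower and 16.1% higher. At 72 hr 7 were lower and 3 higher, where 15.6% and 11.5% of all genes were, so that the share lower lay near that over all genes. Of the 29 regulators and partners, 10 were lower and 6 higher at 48 hr, and 3 were lower and 3 higher at 72 hr, to be read against the same shares. The medians of the targets were -0.39 and -0.27, against -0.12 and -0.02 over all genes.

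**Figure D5:**
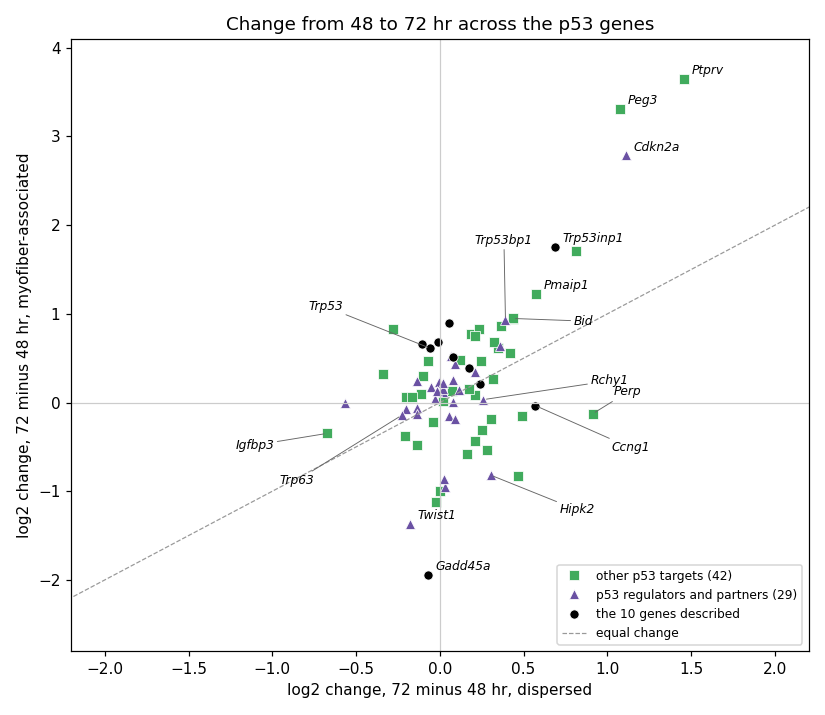
Log2 change from 48 to 72 hr in dispersed (horizontal axis) and myofiber-associated myoblasts (vertical axis) of the 10 genes (black), 42 other p53 targets (green) and 29 regulators and partners (purple), with a dashed line of equal change. *Ptprv*, *Peg3*, *Cdkn2a* and *Trp53inp1* lie above the line at upper right, and *Gadd45a* lies at -0.07 and -1.94.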

How the data were processed

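Total RNA of 16 myoblast preparations was labeled with Cy3 and hybridized to 16 one-color Agilent mouse arrays. The deposited scanner files hold spot intensity, background-subtracted as the processed signal by the authors with Feature Extraction 11.0.1.1, and place probes on mm9. A further deposited table gives log2 ratios that the authors made with loess and quantile normalization in limma, relating every 72-hr array to its culture at 48 hr. Its values were used as an alternative only. Only its 72-hr ratios could be tested, so that the spread of the 48-hr arrays did not enter. Further processing versions are not given in the sources used here.

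From the processed signal, outlier spots were left out (5 readings of the 10 genes), and log2 values were loess-normalized (span 0.3, 4 iterations) against the mean of the 48-hr arrays of the culture and then quantile-normalized over all arrays. Identical probes were averaged, the brightest probe was taken for a gene, and a median log2 signal of at least 5 was required, after the methods of the study. Its SAM test was not at hand, so limma 3.58.1 in R 4.3.3 was fitted to the 8 arrays of each comparison (16 for the comparative ratio), with Benjamini-Hochberg adjustment over 20317 genes, or 28197 probes, and a threshold of 0.01. No sample was dropped. For single values an exact permutation test was run. The pipeline was tested on simulated data. The number of arrays limits the precision. Replicates came from separate preparations of mice.

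The 10 genes and the lists were chosen with earlier results of these data known. All 10 genes are named. Of each list, with the exception of 1 gene that is not reported here, up to 4 genes above and 4 below 0 with the largest change among those past the threshold are named in each comparison over time, and the 5 genes with the highest r with *Trp53*. Markers of 7 cell types (myoblast, early differentiation, endothelial, leukocyte, fibroblast, Schwann and adult fiber) were read as levels with no test. Promoter and start positions are those of RefSeq on GRCm38.p6, and no position was carried between builds. Compared groups share no replicate numbers. Alternatives changed the background correction, the normalization, the filter, the probe rule, the arrays in the fit, the array weights, the threshold and the source of the values, added the slide row as a block, or left out each array in turn. The slide column as a random block and the fit without the 2 myofiber-associated 72-hr arrays of highest fiber signal were added after the data were seen.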

Additional observations from a re-analysis of the deposited data

Results flagged for a closer look

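The time change of *Trp53* differed between the cultures by the test of the comparative ratio (-0.67 on the log2 scale, adjusted p = 0.0079 by limma), since it was -0.06 in the dispersed and 0.61 in the myofiber-associated culture. The *Cdkn1a* variant 2 probe differed in the same way (-1.52, adjusted p = 0.00849). So did *Peg3* (-2.23) and *Cdkn2a* (-1.68) among the other genes of the pathway, which rose further on the fiber. Of these only *Peg3* passed under all 27 alternatives. *Cdkn2a* passed under 17 of 27, *Trp53* under 10 of 27 and the variant 2 probe under 9 of 25, and all 3 were lost with the slide column as a random block (adjusted p = 0.0216, 0.0368 and 0.0284 by limma).

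In 3 of 56 sets of 4 arrays, 1 array lay far from the other 3, where chance gives 5 percent. *Ccng1* in dispersed replicate 5 at 72 hr had a log2 level of 14.13 where the others had 14.26 to 14.27, a gap of 0.878 of the range. *Bax* in the same array had 14.89 where the others had 15.01 to 15.03 (0.859 of the range). *Gadd45a* in dispersed replicate 4 at 48 hr had 10.46 where the others had 10.20 to 10.23 (0.856 of the range).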

How the results depend on the processing

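The number of arrays and the wide spread on the fiber limit these calls. As reported, the counts of the 10 genes changed were 2 in dispersed, 1 in myofiber-associated, 1 in the comparative ratio, 6 between cultures at 48 hr and 2 at 72 hr. Those of the other targets were 15, 3 and 2, those of the regulators 5, 3 and 1, and 2 of 14 probes passed in the comparative ratio. *Trp53* kept its direction in the comparative ratio under all 27 alternatives (-0.80 to -0.60) and passed in 10, and on the fiber under all 19 (0.56 to 0.75), passing in 3. These alternatives include the authors' table, whose test leaves out the spread of the 48-hr arrays. Where a cause is not named below, it was not tested.

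With normexp background correction 3 regulators changed in dispersed and 0 of the 10 genes and 1 target on the fiber, and 1 probe passed. With 75th percentile scaling the *Trp53* comparative ratio was -0.62 (adjusted p = 0.0134 by limma), and 0 of the 10 genes and 0 probes passed there. Without the filter on low signal, where more genes were tested, the *Trp53* ratio stayed at -0.67 (adjusted p = 0.015). The counts were then 7 targets and 1 regulator in dispersed, 0 of the 10 genes, 1 target and 1 regulator on the fiber, 0, 1 and 0 in the comparative ratio, 1 between cultures at 72 hr and 0 probes. With only genes well above background 3 regulators changed in dispersed, and with the mean of all probes 2 did, and 2 differed in the comparative ratio. With the slide row as a block, which leaves fewer degrees of freedom, the *Trp53* ratio of -0.67 had an adjusted p of 0.0104. The counts were 0, 1 and 1 on the fiber, 0 of the 10 genes and 2 regulators in the comparative ratio, 2 and 0 between cultures at 48 and 72 hr, and 0 probes. The estimates between cultures at 48 and 72 hr rest there on the first row of each slide alone. In 1 fit of all 16 arrays, which share 1 spread, the counts were 0, 2 and 2 in dispersed and 6, 16 and 6 on the fiber, where *Trp53* passed (0.61, adjusted p = 2.84e-04). At an adjusted p under 0.05, 25 targets and 8 regulators passed in dispersed, 6 of the 10 genes and 12 targets on the fiber, 6, 9 and 4 in the comparative ratio (15.4% of all genes), 4 of the 10 between cultures at 72 hr (45.8% of all genes) and 7 probes. In the authors' table *Trp53* was 0.60 on the fiber (adjusted p = 0.0069), with 4 of the 10 genes and 6 targets there, 5, 11 and 4 in the comparative ratio and 7 probes. There the 72-hr ratios were tested against 0, or compared between cultures, without the spread of the 48-hr arrays. These counts are therefore not from the test used elsewhere.

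With the slide column as a random block, the *Trp53* ratio of -0.67 had an adjusted p of 0.0368. The counts were 0, 1 and 1 on the fiber, 0, 1 and 0 in the comparative ratio, 1 between cultures at 72 hr and 0 probes, and over all genes tested 225 passed on the fiber in place of 1113. In dispersed myoblasts 3969 passed in place of 2784, with a negative correlation within columns (-0.20). The block was therefore the more lenient fit in that culture. Without the 2 myofiber-associated 72-hr arrays of highest fiber signal, 2 of the 10 genes and 11 targets passed on the fiber (9.87% of all genes), 6, 12 and 6 in the comparative ratio (17.4% of all genes), 5 of the 10 between cultures at 72 hr (24.4% of all genes) and 8 probes.

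Leaving out each array in turn gave 2 to 2 of the 10 genes, 6 to 14 targets and 1 to 4 regulators in dispersed, and 0 to 3, 1 to 6 and 1 to 3 on the fiber. It gave 0 to 4, 1 to 8 and 0 to 4 in the comparative ratio, 5 to 6 and 1 to 3 between cultures at 48 and 72 hr, and 0 to 5 probes. The *Trp53* change then ranged from 0.56 to 0.68 on the fiber, where it passed only without replicate 4 at 72 hr (adjusted p = 0.00919), and from -0.093 to 0.0069 in dispersed, where it turned sign only without replicate 8 at 72 hr. Its comparative ratio ranged from -0.74 to -0.60. No paired analysis was possible because the groups compared share no replicate numbers.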
